A study of Mus musculus with 7 samples.

Results

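Bnip3, Bnip3l, Car9, Car12, Ndrg1, Ankrd37, Ddit4 and Kdm3a are 8 genes that carry out parts of the cell's response to low oxygen. They were taken by gene symbol from a count table of 24047 genes, and all 8 are in it. Of these, 7 held enough counts to be tested among 12875 genes and Car12 did not. The cells were SMB21, a mouse medulloblastoma line with a mutant Ptch background (strain Ptch1tm1Mps/J, adult), grown as neurospheres; the labels name no low-oxygen treatment. A lentiCRISPR virus delivered 1 of 3 guide types, against GFP as the control, against Ofd1 or against Kif3a, with collection 2 weeks after infection, so all groups share the Ptch mutation and the vector. OFD1 sits at centrioles and basal bodies, and KIF3A is part of the kinesin-2 motor; primary cilia need both. Of the libraries, which the labels call biological replicates, 2 had the GFP guide, 3 the Ofd1 guide and 2 the Kif3a guide, and they are named below by guide and replicate number and as GFP control, Ofd1 CRISPR and Kif3a CRISPR in the plots. A count of 3 GFP replicates stands in the design text, and 2 were analysed here. The guide sequences and the use of clones or pools are not stated in the labels, and editing itself was not checked.

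When oxygen is short, the prolyl hydroxylases that mark HIF-alpha subunits for destruction slow down, and HIF-alpha pairs with ARNT and binds a short DNA core in target genes. The products of such targets adjust mitochondria, acidity, growth signalling and chromatin. Bnip3 and Bnip3l are paralogous outer mitochondrial membrane receptors that hand mitochondria to autophagy. Car9 and Car12 are carbonic anhydrases that face the outside of the cell and take part in pH control. Ddit4, also called Redd1, restrains mTORC1 and is also induced by the stress factor ATF4. Kdm3a is an oxygen-dependent demethylase of histone H3 lysine 9, Ndrg1 is a stress-responsive cytoplasmic protein and Ankrd37 is an ankyrin repeat protein widely used as a hypoxia marker. Several of these genes are used as readouts of HIF activity in tumours.

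The 250 bases before the start site of the 4 members that fell most are shown because each window holds letters of the core that HIF binds. They are RefSeq sequences of build GRCm38.p6, whereas the submitters' processing notes name mm9 for the reads, so the coordinates apply to GRCm38.p6 only. Each is printed 5′ to 3′ on the strand of its gene, and capitals mark the cores ACGTG and GCGTG on either strand (CACGT and CACGC when read on the opposite strand).
Bnip3 (chr7:138909507-138909756, minus strand): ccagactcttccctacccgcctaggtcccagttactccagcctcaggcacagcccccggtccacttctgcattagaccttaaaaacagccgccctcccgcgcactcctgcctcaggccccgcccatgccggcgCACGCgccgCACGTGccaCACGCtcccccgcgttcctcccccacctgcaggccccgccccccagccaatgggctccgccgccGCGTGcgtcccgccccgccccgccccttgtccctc
Car9 (chr4:43506776-43507025, plus strand): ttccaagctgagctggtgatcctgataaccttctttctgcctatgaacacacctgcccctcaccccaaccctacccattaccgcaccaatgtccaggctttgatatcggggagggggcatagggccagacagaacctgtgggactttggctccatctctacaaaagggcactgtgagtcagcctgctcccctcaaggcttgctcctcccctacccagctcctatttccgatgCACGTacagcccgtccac
Ddit4 (chr10:59951771-59952020, minus strand): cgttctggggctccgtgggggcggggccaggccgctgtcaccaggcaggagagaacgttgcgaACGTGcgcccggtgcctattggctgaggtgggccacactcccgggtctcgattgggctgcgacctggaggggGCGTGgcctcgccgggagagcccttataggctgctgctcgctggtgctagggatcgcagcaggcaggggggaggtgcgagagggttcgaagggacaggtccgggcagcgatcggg
Ankrd37 (chr8:45999851-46000100, minus strand): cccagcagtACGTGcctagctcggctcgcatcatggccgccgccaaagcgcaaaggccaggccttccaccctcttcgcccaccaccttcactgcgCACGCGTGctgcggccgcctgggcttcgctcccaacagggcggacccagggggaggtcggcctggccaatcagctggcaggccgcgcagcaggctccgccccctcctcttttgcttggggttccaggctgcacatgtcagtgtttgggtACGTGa

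The Bnip3 window held the core ACGTG on both strands within a single CACGTG, 108 to 103 bases before the start, and GCGTG 3 times. In the Car9 window the single match was ACGTG on the opposite strand, 18 to 14 bases before the start. The Ankrd37 window held ACGTG at 241 to 237 and at 6 to 2 bases before the start and a pair of overlapping GCGTG matches, and the Ddit4 window held each core once. The first of 3 Kdm3a start sites had 1 GCGTG and no ACGTG, and the Car12 window had neither core. Windows were matched for 6 of the 8 genes. Among all 32851 RefSeq windows of this length, 16.6% held ACGTG, 28.2% held GCGTG and 38.6% held either core, counting both strands. The windows shown are richer in G and C (56.4% to 72.4%) than the median window (52.4%), and a match is a description of letters, not of binding.

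**Figure D1:**
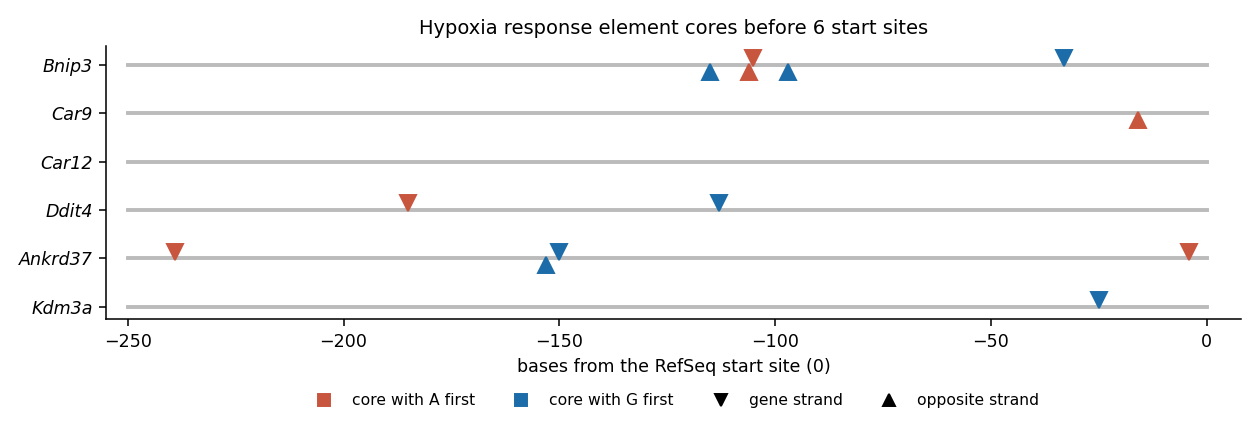
Positions of the 2 hypoxia response element cores in the 250 bases before the RefSeq start sites of 6 genes; the x axis is distance from the start in bases, colour gives the first base of the core and the triangle's direction the strand. Bnip3, Car9, Ddit4 and Ankrd37 carry at least 1 core that begins with A, Kdm3a 1 core that begins with G, and Car12 none.

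Library totals ran from 17961767 to 23022701 counts, and levels below are CPM, counts scaled by library total and TMM factor. Kif3a stood at 104 CPM in both GFP libraries and at 73.9 and 60.5 CPM with the Kif3a guide. Ofd1 stood at 22.6 and 23.2 CPM with the GFP guide. It was slightly lower in all 3 Ofd1 libraries, the lowest at 20.03 CPM and the highest close under the controls. Kif3a was also lower in all 3 Ofd1 libraries, at 90.6, 93.1 and 97.4 CPM. Ofd1 was higher in both Kif3a libraries than in any other library. Between the Ofd1 and Kif3a guides its log2 fold change was -0.53 (edgeR adjusted p = 0.0399). The cause of these differences was not tested. All 13 markers of Hedgehog medulloblastoma and granule progenitors were detected in every library, with summed levels of 3916 to 4309 CPM. That sum covers opposite moves: by edgeR 6 fell and 4 rose with the Ofd1 guide, and 5 fell and 4 rose with the Kif3a guide. Mean Gli1 was 452 CPM with the GFP guide, 253 with the Ofd1 guide and 255 with the Kif3a guide. Mean Atoh1 was 376, 544 and 558 CPM in the same order. Of other cell types, 16 microglia and macrophage markers summed to 25.3 CPM in GFP library 1 and to 2.96 to 4.84 CPM elsewhere, with Cx3cr1 at 0 in all libraries. The 6 oligodendrocyte lineage markers summed to 270 to 284 CPM with the GFP guide and 95.6 to 182 CPM with the other guides, with Sox10 and Mog at 0 throughout, and the 5 endothelial markers to 1.92 to 2.15 and 0.518 to 1.56 CPM, with Cldn5 at 0. The 6 astrocyte markers (207 to 353 CPM, Aqp4 at 0) and 6 fibroblast markers (0.514 to 1.20 CPM) overlapped between groups. The part of these markers in the results was not tested beyond leaving out each library. In bulk RNA, fewer cells of a type and less RNA per cell cannot be told apart.

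Of the 7 tested members, 5 fell with the Ofd1 guide and 6 fell with the Kif3a guide; none rose, also at an unadjusted p or with DESeq2. Bnip3, Car9, Ankrd37 and Ddit4 fell most, Bnip3l fell by less, Kdm3a fell with the Kif3a guide, Ndrg1 was low and did not pass, and Car12 was at or under the floor of 3 counts in all libraries. Of all tested genes, 14.9% were called with the Ofd1 guide (8.09% lower, 6.79% higher) and 20.1% with the Kif3a guide (10.9% lower, 9.19% higher), and at an unadjusted p under 0.05 the shares higher were 15% and 16.6%. A call means an adjusted p under 0.05 in edgeR's quasi-likelihood test, with Benjamini-Hochberg adjustment across the whole table. Adjusted p-values are edgeR's where no other tool is named, and SE is the standard error of a log2 fold change. Both comparisons use the same 2 GFP libraries. The median over the 7 tested members was -0.66 with the Ofd1 guide and -1.06 with the Kif3a guide on the log2 fold change scale, beside 0.00 and 0.01 over all tested genes.

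**Figure D2:**
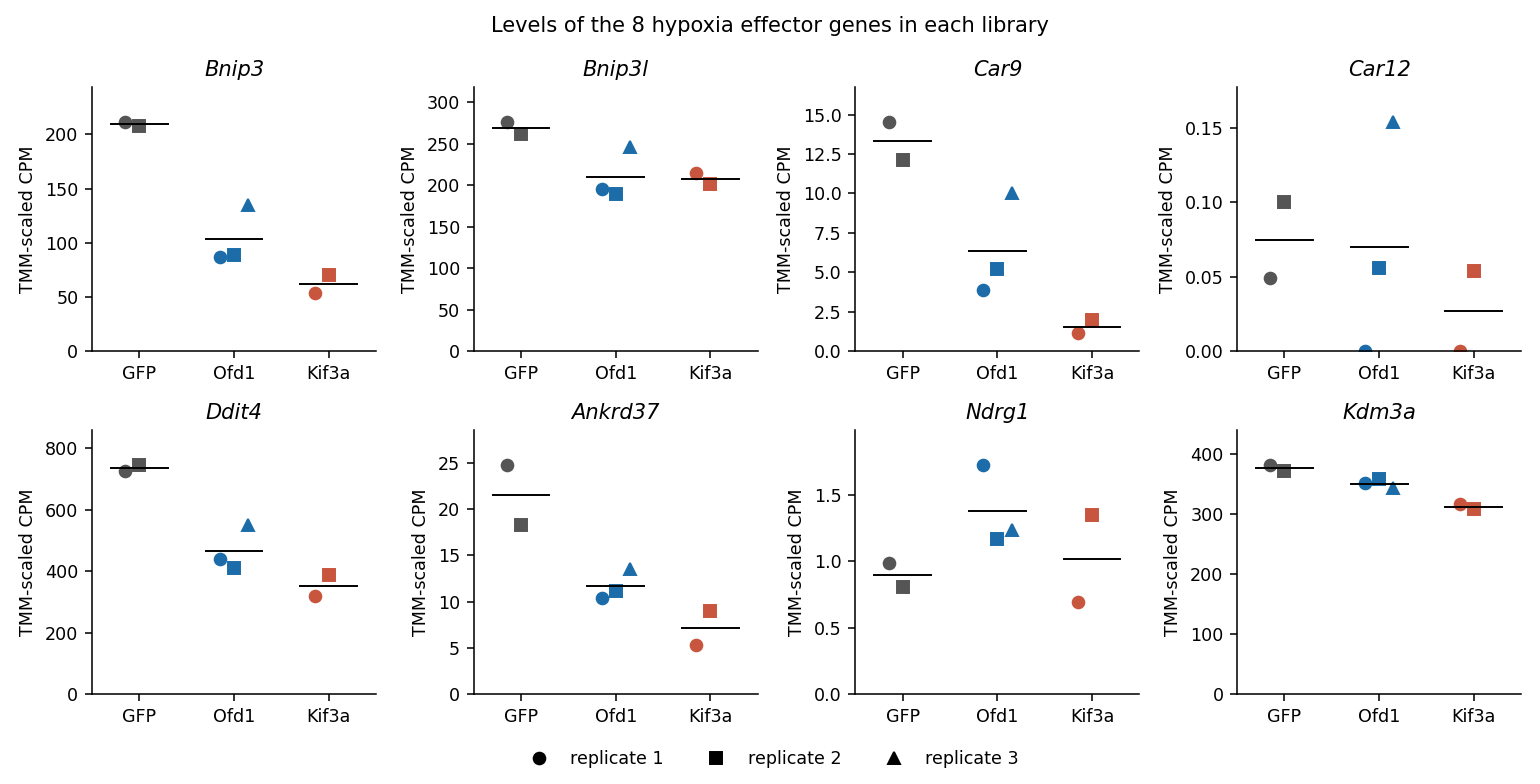
TMM-scaled CPM of the 8 genes (y axis, from 0, own scale per gene) in each library by guide (x axis); points are libraries, shapes give the replicate number and lines are group means. For Bnip3, Bnip3l, Car9, Ddit4, Ankrd37 and Kdm3a every Ofd1 and Kif3a library lies below both GFP libraries, and Ofd1 library 3 is the highest of them for the first 5 of these. The share of all tested genes that separate in this way was not counted.

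Of the mitophagy receptors, Bnip3 stood at 212 and 208 CPM with the GFP guide, at 86.8, 88.9 and 134 CPM with the Ofd1 guide and at 53.2 and 70.1 CPM with the Kif3a guide. The 3 groups did not overlap, and Ofd1 library 3 lay highest among those with a cilium-gene guide. Groups of 2 or 3 libraries can separate without a true difference. The share of all tested genes that do so was not counted, so separation is only described, here and for the genes below. Bnip3 fell by 1.02 on the log2 scale with the Ofd1 guide (SE 0.161, edgeR adjusted p = 0.00199, lower in 3 of 3 libraries), to 0.493 times the control level. It fell by 1.77 with the Kif3a guide, where 2 of 2 libraries were lower (SE 0.186, adjusted p = 0.000113), to 0.293 times the control level. Both calls were kept under all 13 alternative settings.

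Its paralog Bnip3l stood at 277 and 261 CPM with the GFP guide, at 195, 189 and 246 CPM with the Ofd1 guide and at 214 and 201 CPM with the Kif3a guide. Every Ofd1 and Kif3a library was below both control libraries, but these groups overlapped each other and Ofd1 library 3 lay close under the controls. Bnip3l fell by 0.36 with the Ofd1 guide (SE 0.101, edgeR adjusted p = 0.0355) and fell by 0.37 with the Kif3a guide (SE 0.112, adjusted p = 0.0357). The call with the Ofd1 guide was lost without GFP library 1 (adjusted p = 0.216) or 2 (0.109), Ofd1 library 1 (0.0788) or 2 (0.114), or Kif3a library 1 (0.0721) or 2 (0.0717), when only the 2 groups compared were fitted (0.0579) and with library totals alone (0.0513). The call with the Kif3a guide was lost without GFP library 1 (adjusted p = 0.185) or 2 (0.0859) or Kif3a library 1 (0.156) or 2 (0.181).

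The ratio of Bnip3 to Bnip3l counts within a library does not depend on scaling between libraries. It was 0.766 and 0.796 with the GFP guide, 0.445, 0.470 and 0.545 with the Ofd1 guide, and 0.248 and 0.348 with the Kif3a guide. The ratio was lower in every Ofd1 library than in the controls, and lower again in both Kif3a libraries. The exact two-sided permutation test gave p = 0.2 for the Ofd1 guide against the GFP guide and p = 0.333 for the Kif3a guide against the GFP guide, which are the smallest values that groups of this size allow, so this test could not have passed.

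Of the carbonic anhydrases, Car9 stood at 14.5 and 12.1 CPM with the GFP guide (296 and 242 counts), at 3.89, 5.17 and 10.02 CPM with the Ofd1 guide (79, 93 and 195 counts) and at 1.12 and 1.99 CPM with the Kif3a guide (26 and 37 counts). The groups did not overlap, but Ofd1 library 3 stood nearer to the controls than to the other Ofd1 libraries. The log2 value of Car9 fell by 3.12 with the Kif3a guide (SE 0.401, edgeR adjusted p = 0.000366), to 0.115 times the control level with a 95% interval of 0.0625 to 0.210, and ranked 29 from the lowest of 12875 tested genes. That call was kept under all 13 alternatives. Car9 fell by 1.07 with the Ofd1 guide (SE 0.298, adjusted p = 0.0328).

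The Car9 call with the Ofd1 guide was lost with DESeq2 (adjusted p = 0.156), and without GFP library 1 (0.184) or 2 (0.0718), Ofd1 library 1 (0.0551) or 2 (0.1005), or Kif3a library 1 (0.0637) or 2 (0.0636). Without Ofd1 library 3 the log2 fold change was -1.56 and the call was kept. Car12, the other member of this family on the list, had 1 and 2 counts with the GFP guide, 0, 1 and 3 with the Ofd1 guide and 0 and 1 with the Kif3a guide. With a floor of 3 counts, which is what a 0 allows and equals 0.130 to 0.167 CPM here, Car12 was at or under the floor in every library and no fold change is given. Such limits cover counting error only.

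Ddit4, the mTORC1 restraint, stood at 727 and 747 CPM with the GFP guide, at 439, 410.5 and 549 CPM with the Ofd1 guide and at 319 and 387 CPM with the Kif3a guide. The groups did not overlap. It fell by 0.66 with the Ofd1 guide (SE 0.114, edgeR adjusted p = 0.00311) and fell by 1.06 with the Kif3a guide (SE 0.128, adjusted p = 0.000243), and both calls were kept under all 13 alternatives. Its gene carried the highest level per length among the members in every group, as given below.

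Ankrd37 stood at 24.8 and 18.3 CPM with the GFP guide, at 10.4, 11.2 and 13.6 CPM with the Ofd1 guide and at 5.27 and 8.95 CPM with the Kif3a guide. The groups did not overlap, and GFP library 1 was the highest library. Ankrd37 fell by 0.88 with the Ofd1 guide (SE 0.194, edgeR adjusted p = 0.0114), a call lost without GFP library 1 (log2 fold change -0.64). It fell by 1.62 with the Kif3a guide (SE 0.227, adjusted p = 0.000626), a call kept under all 13 alternatives.

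The demethylase gene Kdm3a stood at 382 and 372 CPM with the GFP guide, at 351, 358 and 343 CPM with the Ofd1 guide and at 316 and 308 CPM with the Kif3a guide. The groups did not overlap, although the whole range was narrow. Its log2 fold change with the Ofd1 guide was -0.11 (95% interval -0.24 to 0.03, edgeR adjusted p = 0.276). It fell by 0.28 with the Kif3a guide (SE 0.0681, adjusted p = 0.0151), a call lost without GFP library 1 (0.140) or 2 (0.0813) or Kif3a library 1 (0.0766) or 2 (0.0667).

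Ndrg1 was low in these cells, at 0.983 and 0.802 CPM with the GFP guide (20 and 16 counts), at 1.72, 1.17 and 1.23 CPM with the Ofd1 guide and at 0.691 and 1.35 CPM with the Kif3a guide. All 3 Ofd1 libraries lay above the controls, and the Kif3a libraries lay on either side of them. Neither difference passed: the log2 fold change was 0.63 with the Ofd1 guide (95% interval -0.16 to 1.41, edgeR adjusted p = 0.263) and 0.16 with the Kif3a guide (95% interval -0.73 to 1.04, adjusted p = 0.817). The interval for the Kif3a guide leaves room for a change of about 0.604 to 2.06 times.

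**Figure D3:**
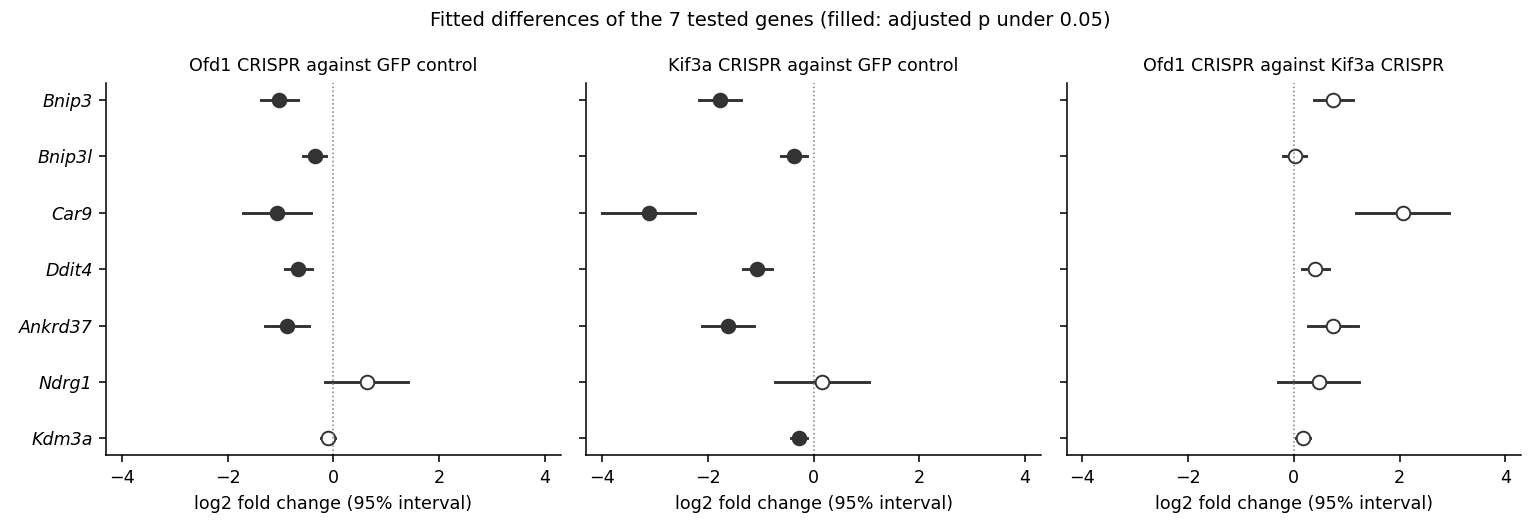
Log2 fold changes (x axis) of the 7 tested genes in the 3 comparisons, with 95% intervals; filled points had an adjusted p under 0.05. The Car9 value with the Kif3a guide, -3.12, is the lowest, and no point in the direct comparison of the Ofd1 and Kif3a guides is filled.

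The Ofd1 and Kif3a guides were then compared directly. None of the 7 tested members was called by edgeR between the Ofd1 guide and the Kif3a guide with the filter on low counts, in a comparison where 0.179% of all tested genes were called, 0.171% higher and 0.00777% lower with the Ofd1 guide. At an unadjusted p under 0.05, 5 members were higher with the Ofd1 guide, beside 5.51% of all tested genes, and DESeq2 called 2 (Car9 and Ddit4). Without the filter edgeR also called 2, Bnip3 (adjusted p = 0.0154) and Car9 (0.00333). With the filter and a replicate block it called the same 2, as given in the closing section. Car9 was 2.06 higher on the log2 scale with the Ofd1 guide than with the Kif3a guide (95% interval 1.18 to 2.93, edgeR adjusted p = 0.0837; DESeq2 0.0259). Bnip3 was 0.75 higher (95% interval 0.38 to 1.12, adjusted p = 0.151), Ankrd37 0.74 higher (0.27 to 1.21, 0.276) and Ddit4 0.40 higher (0.15 to 0.66, 0.276; DESeq2 0.0410). Kdm3a was 0.17 higher (95% interval 0.03 to 0.31), and Bnip3l and Ndrg1 differed by 0.02 (-0.21 to 0.24) and 0.47 (-0.30 to 1.23).

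The 22 genes called higher with the Ofd1 guide than with the Kif3a guide included 13 from the pathway lists described below. They were 10 hypoxia response genes, the oxygen sensors Egln1 and Egln3, and the lactate exporter Slc16a3. The number of hypoxia response genes called higher was 22 with DESeq2, 21 without the filter, 18 without Ofd1 library 1, 6 without Kif3a library 2 and 0 without Kif3a library 1. Without Kif3a library 1, edgeR called 0 genes higher (346 at an unadjusted p under 0.05), and without Ofd1 library 1 it called 44. No member was called without Kif3a library 1, whereas Bnip3 (adjusted p = 0.0343) and Car9 (0.00382) were called without Ofd1 library 1.

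Levels were compared between genes per kilobase of the longest coding transcript (GENCODE M21, GRCm38). With the GFP guide Ddit4 came first at 420 CPM per kb, followed by Bnip3 at 119, Bnip3l at 82.5, Kdm3a at 77.7, Ankrd37 at 23.3, Car9 at 6.59, Ndrg1 at 0.309 and Car12 at 0.0201. Ddit4 was again first with the Kif3a guide, at 201 CPM per kb, and Bnip3 came after Kdm3a and Bnip3l, at 35.1 against 64.2 and 63.7. The libraries of Kdm3a and Bnip3l overlapped there, so these neighbours did not differ beyond their spread. With the Ofd1 guide Kdm3a (72.3), Bnip3l (64.5) and Bnip3 (58.9 CPM per kb) lay within overlapping ranges. The place of Bnip3 depends on its transcript: over its shorter coding transcript of 719 bases, against 1756, it stood at 292, 144 and 85.7 CPM per kb with the GFP guide, the Ofd1 guide and the Kif3a guide, second to Ddit4 in each.

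The oxygen-sensing machinery itself was looked at next, in a list of 10 genes of which 9 were tested. In each comparison with the GFP guide 2 fell, 1 rose and 6 did not pass. Egln3, a prolyl hydroxylase that senses oxygen, fell by 0.90 with the Ofd1 guide (SE 0.0940) and fell by 1.68 with the Kif3a guide (SE 0.108). Egln1, the main such enzyme in most tissues, fell by 0.47 (SE 0.0713) and, with the Kif3a guide, fell by 1.04 (SE 0.0800), with edgeR adjusted p = 0.00159 as the largest of these 4. Arnt2, a neural partner of HIF-alpha, rose by 0.34 and 0.35 (adjusted p = 0.0206 and 0.0217). Those rises were lost without GFP library 1 (adjusted p = 0.185 and 0.168) or 2 (0.0917 and 0.0769), and with the Kif3a guide also without Kif3a library 1 (0.180).

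Hif1a, which encodes HIF-1-alpha, stood at 279 and 275 CPM with the GFP guide, at 256, 254 and 275 CPM with the Ofd1 guide and at 337 and 277 CPM with the Kif3a guide. Its log2 fold changes were -0.08 (adjusted p = 0.557) and 0.15 (adjusted p = 0.270). Epas1, which encodes HIF-2-alpha, had 3 to 8 counts in each library and was not tested. The other subunits and regulators, Arnt, Hif3a, Vhl, Egln2 and Hif1an, had log2 fold changes from -0.23 to 0.17 and did not pass in either comparison. HIF proteins were not measured.

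Of 48 other hypoxia response genes 44 were tested. With the Ofd1 guide 31 fell, 1 rose and 12 did not pass, with a median log2 fold change of -0.54, and with the Kif3a guide 36 fell, 1 rose and 7 did not pass, with a median of -0.97. Ero1l, an oxidase of the endoplasmic reticulum, fell in both, with log2 fold changes of -1.10 (SE 0.0951) with the Ofd1 guide and -1.59 (SE 0.109) with the Kif3a guide. The secreted glycoprotein gene Stc2 fell by 1.71 (SE 0.156) and the collagen lysyl hydroxylase gene Plod2 fell by 0.60 (SE 0.0665) with the Ofd1 guide. The glycolytic regulator Pfkfb3 fell by 1.49 (SE 0.0958) and the glucose transporter Slc2a3 fell by 1.11 (SE 0.0715) with the Kif3a guide. The 1 gene that rose in each was Cited2, an inducible competitor of HIF for its coactivators, which was singled out after its values were seen. It stood at 123 and 111 CPM with the GFP guide, at 202, 159 and 170.3 CPM with the Ofd1 guide and at 192 and 180.4 CPM with the Kif3a guide.

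By library, the median of these 44 genes, each taken as log2 CPM minus its own mean, was 0.55 and 0.49 with the GFP guide, -0.05, -0.01 and 0.04 with the Ofd1 guide, and -0.58 and -0.36 with the Kif3a guide. The same median over the 7 tested members was 0.57 and 0.61, then -0.19, -0.09 and 0.17, then -0.61 and -0.34. The order of the 3 groups was the same on both lists, with Ofd1 library 3 highest and Kif3a library 1 lowest among the Ofd1 and Kif3a libraries.

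**Figure D4:**
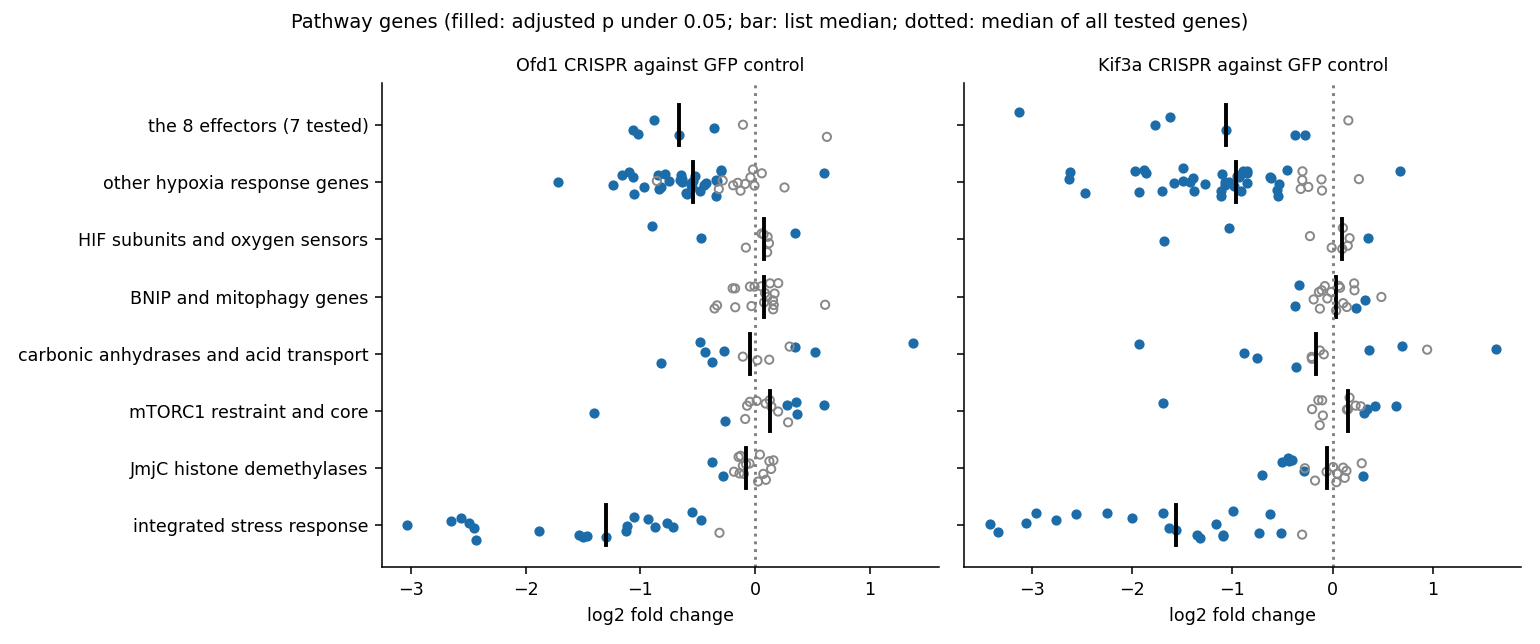
Log2 fold changes (x axis) of tested genes in 8 lists (y axis) for each comparison with the GFP guide; filled points had an adjusted p under 0.05, bars are list medians and the dotted line is the median of all tested genes. The 8 effectors, the other hypoxia response genes and the integrated stress response genes have medians below -0.5 in both panels, and the other lists shown have medians from -0.17 to 0.15.

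Genes that work beside the members were counted in the same way. The counts in this and the following lists stand beside shares over all tested genes. These were 8.09% lower and 6.79% higher with the Ofd1 guide, and 10.9% lower and 9.19% higher with the Kif3a guide. Of 19 other BNIP and mitophagy genes none was called with the Ofd1 guide by edgeR (4 lower and 4 higher at an unadjusted p under 0.05), and 1 fell and 1 rose by DESeq2. Under the Kif3a guide 2 fell and 2 rose, among them the autophagosome protein gene Gabarapl1 (-0.33, adjusted p = 0.0131) and the mitophagy receptor gene Optn (0.32, adjusted p = 0.0197). The 2 that fell with that guide were 10.5% of the 19, near the share of all tested genes. With library totals alone 1 fell and 4 rose, and with DESeq2 1 fell and 3 rose. With the Ofd1 guide 3 fell and 1 rose without Ofd1 library 3. None was called with the Kif3a guide without GFP library 1 or Kif3a library 1 or 2, 1 fell without GFP library 2, and 1 fell and 1 rose without Ofd1 library 2.

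Of 20 other carbonic anhydrases and acid transport genes 12 were tested, of which 5 fell and 3 rose with the Ofd1 guide and 4 fell and 3 rose with the Kif3a guide. Slc16a3, an exporter of lactate, had log2 fold changes of -0.82 and -1.93 and its chaperone Bsg -0.48 and -0.75 with the Ofd1 guide and the Kif3a guide, and all 4 were called. Car14, another membrane carbonic anhydrase, fell by 0.89 with the Kif3a guide (SE 0.0979), and Car3, a cytosolic one, rose by 1.38 with the Ofd1 guide (SE 0.211, edgeR adjusted p = 0.00167). Without GFP library 1, 1 gene fell and 1 rose with the Ofd1 guide and Bsg was not called (adjusted p = 0.0659). The counts with the Ofd1 guide were 3 and 1 without GFP library 2, 4 and 1 without Ofd1 library 1 or either Kif3a library, and 2 and 2 without Ofd1 library 2. For the Kif3a guide, 1 rose without GFP library 1 or Kif3a library 1, and 2 rose without GFP library 2, Ofd1 library 2 or Kif3a library 2.

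Of 17 mTORC1 genes 15 were tested, and 2 fell and 4 rose with the Ofd1 guide and 1 fell and 4 rose with the Kif3a guide. Sesn2, a leucine sensor that like Ddit4 restrains mTORC1, fell in both (-1.41 and -1.70), whereas its relative Sesn1 rose in both (0.36 and 0.35). The Sesn1 calls were lost without GFP library 2 (log2 fold changes 0.31 and 0.30). With the Kif3a guide the Sesn1 call was also lost without Kif3a library 1 (0.32). For the Ofd1 guide, 1 gene fell when any single library other than Ofd1 library 3 was left out, 2 genes rose without either GFP library or Ofd1 library 1 or 2, and 7 rose without Ofd1 library 3. For the Kif3a guide, 2 rose without either GFP library and 1 without Kif3a library 1, and 2 fell without Ofd1 library 3. None of the other 3 NDRG genes was called in edgeR's main fit or by DESeq2, with log2 fold changes from -0.33 to 0.41. At an unadjusted p under 0.05, 1 was higher in each comparison. With the Ofd1 guide edgeR called 1 higher with library totals alone and with a replicate block. With the Kif3a guide it called 1 higher when only the 2 groups compared were fitted and with a replicate block.

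Of 18 other JmjC demethylase genes 17 were tested. With the Ofd1 guide 2 fell and 15 did not pass, and with the Kif3a guide 6 fell and 1 rose. Jmjd6, an oxygenase of the same fold, fell in both (-0.37 and -0.70). The H3 lysine 9 demethylase gene Kdm4b fell by 0.50 with the Kif3a guide (SE 0.0961), which was not called without Kif3a library 1 (edgeR adjusted p = 0.0647). For the Ofd1 guide, none fell without GFP library 1, and 1 fell without GFP library 2 or any Ofd1 library. For the Kif3a guide, 3 fell without GFP library 1 or 2 or Kif3a library 2, and 4 without Kif3a library 1; none rose without GFP library 1 or 2 or Kif3a library 1.

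Ddit4 also belongs to the ATF4 programme, so 21 integrated stress response genes were counted beside it. In each comparison with the GFP guide 20 fell and 1 did not pass, with medians of -1.30 with the Ofd1 guide and -1.56 with the Kif3a guide. The genes of the transcription factors Atf5 (-2.65 and -3.06) and Cebpb (-1.53 and -2.25) fell in both. The part of this programme in the Ddit4 result was not tested.

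For Bnip3 and Car9 the tested genes outside the list with the closest pattern over the 7 libraries were found by the root mean square difference of centred log2 CPM. Closest to Bnip3 were the adhesion receptor gene Pvr (0.0859), Ndufa4l2 (0.0909), which encodes a mitochondrial protein, and the angiogenic factor gene Vegfa (0.0996). Vegfa stood at 694 and 723 CPM with the GFP guide, at 266, 302 and 383 CPM with the Ofd1 guide and at 158 and 232 CPM with the Kif3a guide. Among the members Ankrd37 was nearest to Bnip3, at 0.189. Car9 had no neighbour as close: the phosphofructokinase gene Pfkp (0.366), the lysyl oxidase-like gene Loxl2 (0.376) and the incretin receptor gene Gipr (0.377) came first. Gipr was itself low, at 0.562 to 6.71 CPM.

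**Figure D5:**
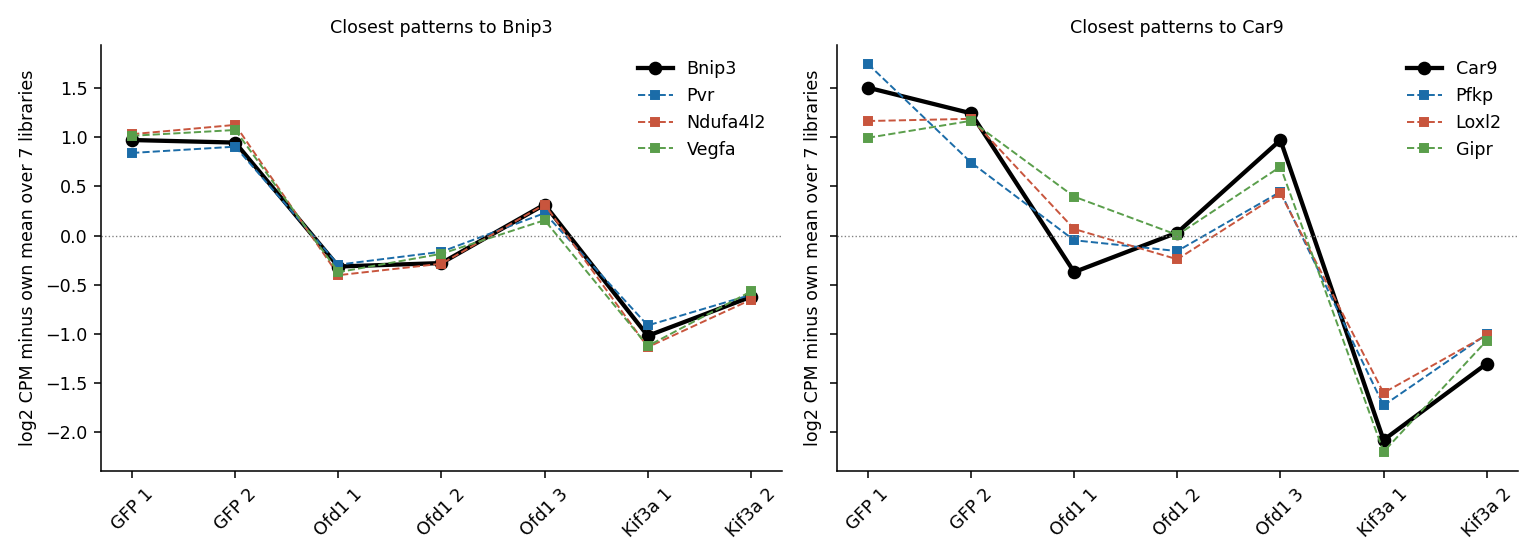
Log2 CPM minus each gene's own mean (y axis) in the 7 libraries (x axis) for Bnip3 and Car9 (black) and the 3 tested genes closest to each; lines only join the points of a gene, since replicates have no order. The genes near Bnip3 differ from it by 0.0859 to 0.0996, and those near Car9 by 0.366 to 0.377, in root mean square.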

How the data were processed

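Stranded mRNA libraries from 7 samples were sequenced single-end at 75 bases on 1 run, per the labels' protocols. The authors deposited raw counts, whole numbers with no scaling. Per the submitters' processing notes STAR, DESeq2 and mm9 were used, with no version or role; nothing used here states the counter, annotation, strand setting or filters, so reads that overlapping or near-identical genes share could shift single genes.

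From these counts, edgeR 4.0.16 (filterByExpr, TMM, quasi-likelihood F test, one mean per group, 4 residual degrees of freedom) tested 12875 genes in 3 contrasts with Benjamini-Hochberg adjustment. Where replicates were not separate cultures, p-values measure only the spread between these samples. Centred log2 CPM used a prior count of 2. Alternatives were DESeq2 1.42.0, RLE factors, library totals, no filter, only the compared groups, a replicate block and leaving out each library; per-kilobase levels over the shortest coding transcript were added after seeing the data. The fits were also run on simulated counts in which all genes shared a single spread. That run cannot speak for genes that vary more between libraries. The genes, lists and tests were chosen with earlier results of these data known. Named genes were the 8 members, the HIF and oxygen sensor genes, up to 3 called genes with the smallest adjusted p per list and comparison with GFP control, and the 3 genes closest to Bnip3 and to Car9, of which examples are given.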

Additional observations from a re-analysis of the deposited data

How the results depend on the processing

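Bnip3 and Ddit4 in both comparisons with GFP control, and Car9 and Ankrd37 in Kif3a CRISPR, kept direction and call under all 13 alternatives. With each library left out in turn, the members called lower numbered 2 to 5 in Ofd1 CRISPR (5 with all libraries) and 4 to 6 in Kif3a CRISPR (6), and those called higher in Ofd1 CRISPR than in Kif3a CRISPR 0 to 2 (0). Over the same left-out libraries, hypoxia response genes called numbered 21 to 31 lower and 1 to 2 higher in Ofd1 CRISPR and 31 to 38 lower and 1 to 2 higher in Kif3a CRISPR. All genes called numbered 378 to 1510 lower and 270 to 1321 higher in Ofd1 CRISPR (1041 and 874), 405 to 1641 and 281 to 1478 in Kif3a CRISPR (1401 and 1183), and 0 to 6 and 0 to 44 between the Ofd1 and Kif3a guides (1 and 22).

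The labels give same-numbered libraries no shared origin, and same-numbered libraries did not deviate together in every pair of groups, so they were not treated as paired. Their deviations correlated at 0.20 and 0.19 between GFP control and Ofd1 CRISPR, at 0.23 and 0.15 between Ofd1 CRISPR and Kif3a CRISPR, and at -0.01 between GFP control and Kif3a CRISPR. In a group of 2 libraries the deviations are mirror images, so that last value is a single measure. It cannot settle whether the libraries were paired. With a replicate block 1876 genes were lower and 1620 higher in Ofd1 CRISPR, 67 and 124 between the Ofd1 and Kif3a guides, and 1877 and 1698 in Kif3a CRISPR; 2 hypoxia response genes were higher in each comparison with GFP control, and 2 members (Bnip3, adjusted p = 0.0119 by edgeR, and Car9, 0.0112) and 22 hypoxia response genes were called higher in Ofd1 CRISPR than in Kif3a CRISPR. Of the BNIP and mitophagy genes, 2 fell and 4 rose in Kif3a CRISPR with the block, and 4 fell and 1 rose in Ofd1 CRISPR. Between the Ofd1 and Kif3a guides 5 and 75 genes were called without a filter and 6 and 101 with DESeq2, with 2 members higher in each, and 0 genes lower in the fit of only those groups. With library totals alone 2 hypoxia response genes were higher in each comparison with GFP control, and 2 in Kif3a CRISPR in the fit of only the 2 groups compared. With library totals alone 852 genes were lower and 1154 higher in Ofd1 CRISPR, and 1251 and 1486 in Kif3a CRISPR.

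Directions reversed for 2 genes with no call: Bnip3l between the Ofd1 and Kif3a guides (-0.11 with the replicate block, -0.11 without Ofd1 CRISPR replicate 3, -0.03 without Kif3a CRISPR replicate 2) and Ndrg1 in Kif3a CRISPR (-0.37 without Kif3a CRISPR replicate 2; with single libraries left out the values reached 0.0872 and 0.60). The cause was not tested. Depth limits Car12 and Ndrg1, at 0 to 3 and 16 to 35 counts.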
